A study of Mus musculus with 4 samples.

Results

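Genes of the mitochondrial ribosome were compared between mouse early blastocysts made by in vitro fertilization (IVF) and by nuclear transfer from somatic cells (SCNT), where a body cell's nucleus takes the place of the oocyte's own. The set was taken by gene symbol as every row whose name begins with Mrpl or Mrps followed by a digit, which gave 76 of 23235 rows, 47 Mrpl and 29 Mrps. Each group had 2 RNA-seq libraries, each made from a pool of 6 embryos, and the embryos were lysed at 96 hours from fertilization (IVF) or activation (SCNT). For IVF, Xist knockout oocytes (129S1/Svj background) were combined with wild-type CAST/EiJ sperm. For SCNT, recipient oocytes of B6D2F1/J females received nuclei of mouse embryonic fibroblasts, which were heterozygous for the Xist knockout and came from Xist knockout 129S1/SvImj mothers and CAST/EiJ fathers. Nuclear genomes of both groups were therefore 129/CAST hybrids with an Xist knockout allele from the mother, and all genes described here are nuclear. The oocytes, and with them the cytoplasm, differed in strain between the groups. Nuclear transfer and oocyte strain therefore cannot be told apart in any difference below. The SCNT column headers also include "kdm4d", as in the histone demethylase gene Kdm4d, and the labels name no treatment with it.

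Mitochondrial ribosomes translate the few messages of mitochondrial DNA, all of them for core subunits of the respiratory chain and ATP synthase. Their RNA comes from mitochondrial DNA, while every protein is encoded in the nucleus, made in the cytosol and imported. Many of the proteins have a bacterial counterpart and others exist only in mitochondria. The large subunit forms peptide bonds and passes the new chain through an exit tunnel to the inner membrane, and the small subunit binds the messenger RNA. Names do not always give the place: the proteins of Mrps30 and Mrps18a sit in the large subunit, and that of Mrps36 is now assigned to the 2-oxoglutarate dehydrogenase complex.

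Values were taken to be FPKM, fragments scaled by transcript length and by mapped fragments per library, which is inferred and not stated in the files. FPKM summed to between 933167 and 985197 per library, 10802 to 10923 genes reached 1 FPKM, and no counting error can be given because the depth is unknown. All 15 trophectoderm, all 12 inner cell mass and 8 of 10 primitive endoderm markers of the lists used were at 1 FPKM or more in every library. Summed trophectoderm markers were 5218 and 4626 FPKM in IVF and 7152 and 5068 FPKM in SCNT. Inner cell mass markers had 557 and 604 FPKM in IVF and 655 and 698 FPKM in SCNT. Primitive endoderm markers had 371 and 277 FPKM in IVF and 374 and 322 FPKM in SCNT. The highest trophectoderm marker averaged 2710 FPKM against a median of 41.9 FPKM, so high genes weigh most in that sum. Estimates were higher in SCNT for 12 of 15 trophectoderm, 7 of 12 inner cell mass and 4 of 8 tested primitive endoderm markers. Unadjusted limma p was under 0.05 for 26.7%, 16.7% and 37.5% of these, against 7.09% of all tested genes. None passed after adjustment. All 9 cumulus cell, 9 of 12 fibroblast and 7 of 10 oocyte markers were below 1 FPKM in every library. Their summed levels were 5.99 to 12.5 FPKM for fibroblasts, 2.38 to 6.27 FPKM for oocytes and 1.21 to 1.51 FPKM for cumulus cells. The part of cell makeup in the values was not tested. MicroRNA and small nucleolar RNA genes held 12.4% and 12.2% of summed FPKM in IVF and 9.50% and 9.73% in SCNT. Their share of mapped fragments is unknown, and so is any effect on the scale of other genes. Separate parents or culture days are not named for the libraries of a group. The p-values thus rest on library-to-library spread alone, and that spread may be technical. In pooled embryos, fewer cells of a type and less RNA per cell cannot be told apart.

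Promoter letters known from nuclear genes of mitochondria were counted in the members. RefSeq (GRCm38.p6) windows from 250 bases before to 50 after a gene start were found for 67 of the 76 members. Letters of the ETS family site CCGGAAG, bound by GABP, were in windows of 24 members (35.8%), against 22.2% of 8390 tested protein-coding genes and 9.93% of all 27025 genes with a window. Those of the NRF1 site, GCGCA and GCGC parted by any 1 base, were in 12 members (17.9%, against 12.5% and 5.19%) and those of the YY1 site, AAGATGG followed by CGGC, in 5 (7.46%, against 2.05% and 0.755%). Any of the 3 was found in 36 of the 67 windows. GABP, NRF1 and YY1 are transcription factors known for activating nuclear genes of mitochondria. The E-box CACGTG was in 5 members (7.46%, against 12.3% and 8.09%). Both strands were searched, a gene with several starts counted once, and a match is a description and not a binding site.

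A start of another protein-coding gene, head to head on the opposite strand within 1000 bases, was found for 23 of the 67 members (34.3%), against 14.6% of tested protein-coding genes. For 4 of these pairs, picked from those whose partner protein also works in mitochondria, the stretch between the starts shows how closely the genes are placed. Mrpl46 and Mrps11, a gene of each subunit, share 41 bases. Mrpl43 lies beside Twnk, the mitochondrial DNA helicase gene listed in these files as Peo1. Mrps12 lies beside Sars2, the mitochondrial seryl-tRNA synthetase gene, and Mrps27 beside Ptcd2, a gene for a mitochondrial RNA-binding protein. Upstream stretches of Mrpl12 and Mrpl45 are added for their NRF1 letters. All are written 5′ to 3′ on the strand of the first-named gene, with ETS or NRF1 letters in capitals, and with RefSeq GRCm38.p6 coordinates, which is not the mm9 build of the deposited values.
Mrpl46 and Mrps11 (chr7:78783090-78783130, minus strand): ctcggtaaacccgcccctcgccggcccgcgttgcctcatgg
Mrpl43 and Twnk (chr19:45006443-45006557, minus strand): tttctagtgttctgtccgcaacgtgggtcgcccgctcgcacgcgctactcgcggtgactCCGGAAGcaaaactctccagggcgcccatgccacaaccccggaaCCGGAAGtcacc
Mrps12 and Sars2 (chr7:28741822-28741967, minus strand): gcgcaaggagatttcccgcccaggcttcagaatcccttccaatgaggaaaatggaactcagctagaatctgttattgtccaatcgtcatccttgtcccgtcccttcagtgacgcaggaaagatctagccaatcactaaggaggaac
Mrps27 and Ptcd2 (chr13:99344679-99344785, plus strand): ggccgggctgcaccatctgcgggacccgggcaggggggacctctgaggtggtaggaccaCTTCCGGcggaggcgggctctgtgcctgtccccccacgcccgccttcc
Mrpl12 (chr11:120484512-120484636, plus strand): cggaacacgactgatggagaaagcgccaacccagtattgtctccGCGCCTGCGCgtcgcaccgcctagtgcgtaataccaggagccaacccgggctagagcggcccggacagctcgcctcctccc
Mrpl45 (chr11:97315591-97315715, plus strand): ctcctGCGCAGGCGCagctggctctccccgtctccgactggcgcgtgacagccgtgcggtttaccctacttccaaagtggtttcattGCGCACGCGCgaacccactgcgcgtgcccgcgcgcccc

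All 76 genes were expressed in both kinds of embryo. The lowest value of any member in any library was 10.4 FPKM and the highest 866 FPKM, so all 76 passed the filter of a mean of at least 1 FPKM. The median member had a mean of 124 FPKM (129 for Mrpl, 119 for Mrps), against 10.3 FPKM for all 11039 tested genes. A mean of 100 FPKM or more was reached by 44 members, and 6 were below 30 FPKM.

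Members of the same ribosome differed widely in level, although most of the proteins are present in a single copy per ribosome. The highest mean was 69.3 times the lowest over all members and 35.7 times within Mrpl. Among the Mrps symbols Mrps21, the counterpart of bacterial S21, led with 749 and 866 FPKM in IVF and 676 and 717 FPKM in SCNT. Mrps25, a protein found only in mitochondria, was lowest with 10.95 and 10.4 FPKM in IVF and 11.6 and 10.5 FPKM in SCNT. Mrps21 was thus below the IVF range in each SCNT library, and the values of Mrps25 overlapped. Mrps30 (mean 20.3 FPKM), whose protein is in the large subunit, and Mrps31 (33.2 FPKM) had the next lowest Mrps levels, and Mrps18c (493 FPKM), Mrps18b (372 FPKM) and Mrps16 (330.3 FPKM) next highest. Among the Mrpl symbols, Mrpl33, the counterpart of bacterial L33, had 639.7 and 828 FPKM in IVF and 614 and 723 FPKM in SCNT. It was followed by Mrpl52 with a mean of 651 FPKM, Mrpl12 with 627 FPKM and Mrpl42 with 564 FPKM, while Mrpl19 (19.7 FPKM), Mrpl50 (24.7 FPKM) and Mrpl41 (29.8 FPKM) had the lowest Mrpl levels.

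**Figure D1:**
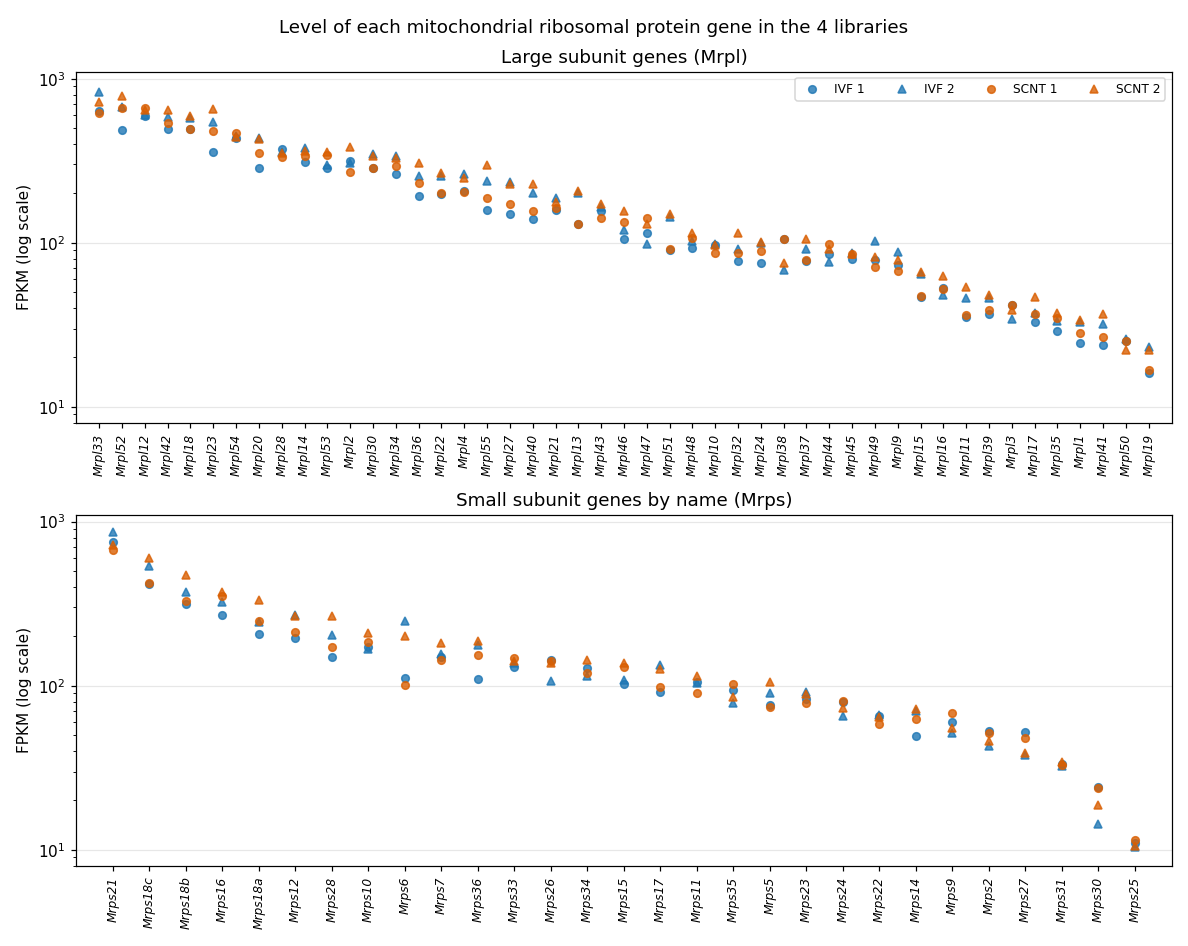
FPKM of each Mrpl (top) and Mrps (bottom) gene on a log axis, ordered by mean, with 1 point per library (blue IVF, orange SCNT, circle library 1, triangle library 2). Levels ran from 10.4 to 866 FPKM, and the 4 points of a gene lie close together beside that range.

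Levels went with transcript length. Transcript lengths were those of the coding transcript with the longest reading frame in GENCODE M21. Across the 76 members Spearman's rho between length and mean FPKM was -0.71, and across 9377 tested genes with a length it was -0.38. The points share the same 4 libraries, genes are not independent replicates, and FPKM is already divided by length. Among the 26 shortest members (418 to 1018 bases) the median level was 252 FPKM, and among the 25 longest (1849 to 7300 bases) it was 56.3 FPKM. Mrps21 and Mrpl33 have transcripts of 488 and 478 bases and Mrps25 one of 6073 bases. Mrpl41 departed from this order with 776 bases and 29.8 FPKM. The part of transcript length in the order of levels was not tested further.

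**Figure D2:**
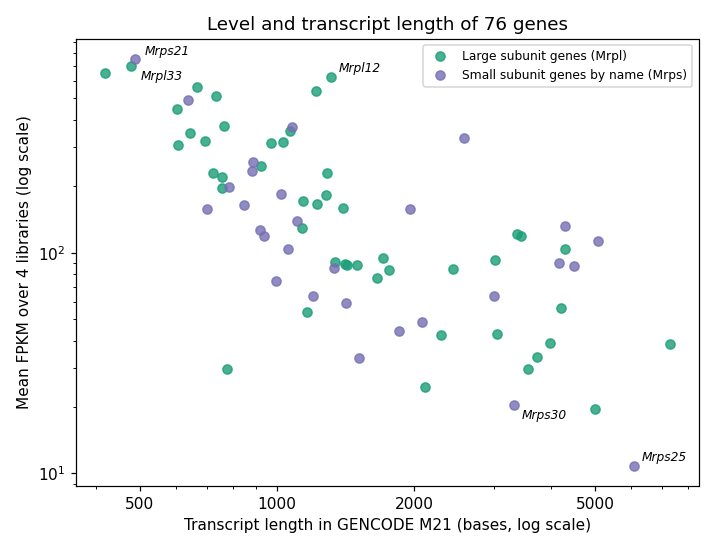
Mean FPKM over the 4 libraries against transcript length in bases, both on log axes, 1 point per gene (green Mrpl, purple Mrps). Short transcripts such as Mrps21 (488 bases) lie highest and long ones such as Mrps25 (6073 bases) lowest.

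The comparison of SCNT with IVF embryos asked whether the mitochondrial ribosome genes differ after nuclear transfer. None did by the test used. With limma on log2(FPKM + 1), adjusted over all 11039 tested genes, 0 of 47 Mrpl and 0 of 29 Mrps genes passed an adjusted p of 0.05, where 14 tested genes did (0.127%). At an unadjusted p under 0.05 there were also 0 of 76 members, against 7.09% of all tested genes (4.25% with SCNT higher and 2.84% with SCNT lower). The lowest adjusted p of a member was 0.857. All differences below are SCNT minus IVF on the log2(FPKM + 1) scale, and they lay between -0.24 (Mrpl49) and 0.36 (Mrpl46).

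The 95% intervals bound what this fit, with group as its only term, could have missed. For 71 of the 76 members (93.4%) the interval lay inside a 2-fold change in both directions, against 78.9% of all tested genes. The other 5, Mrpl23, Mrpl55, Mrps6, Mrps28 and Mrps36, had upper bounds of 1.12, 1.11, 1.07, 1.06 and 1.02, and Mrps6 also a lower bound of -1.50. The median standard error of a member was 0.22, so a difference well under 2-fold was not detectable by this fit for most of them. The fit leaves differences between library numbers in its error. Standard errors of these 5 were 0.30, 0.33, 0.50, 0.30 and 0.29, in the order named. With a term for library number they were 0.091, 0.088, 0.096, 0.097 and 0.13, though the labels name no pairing. The adjusted threshold over all tested genes is stricter than a 95% interval. A true difference of 2-fold, or a larger one, could therefore also go uncalled.

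**Figure D3:**
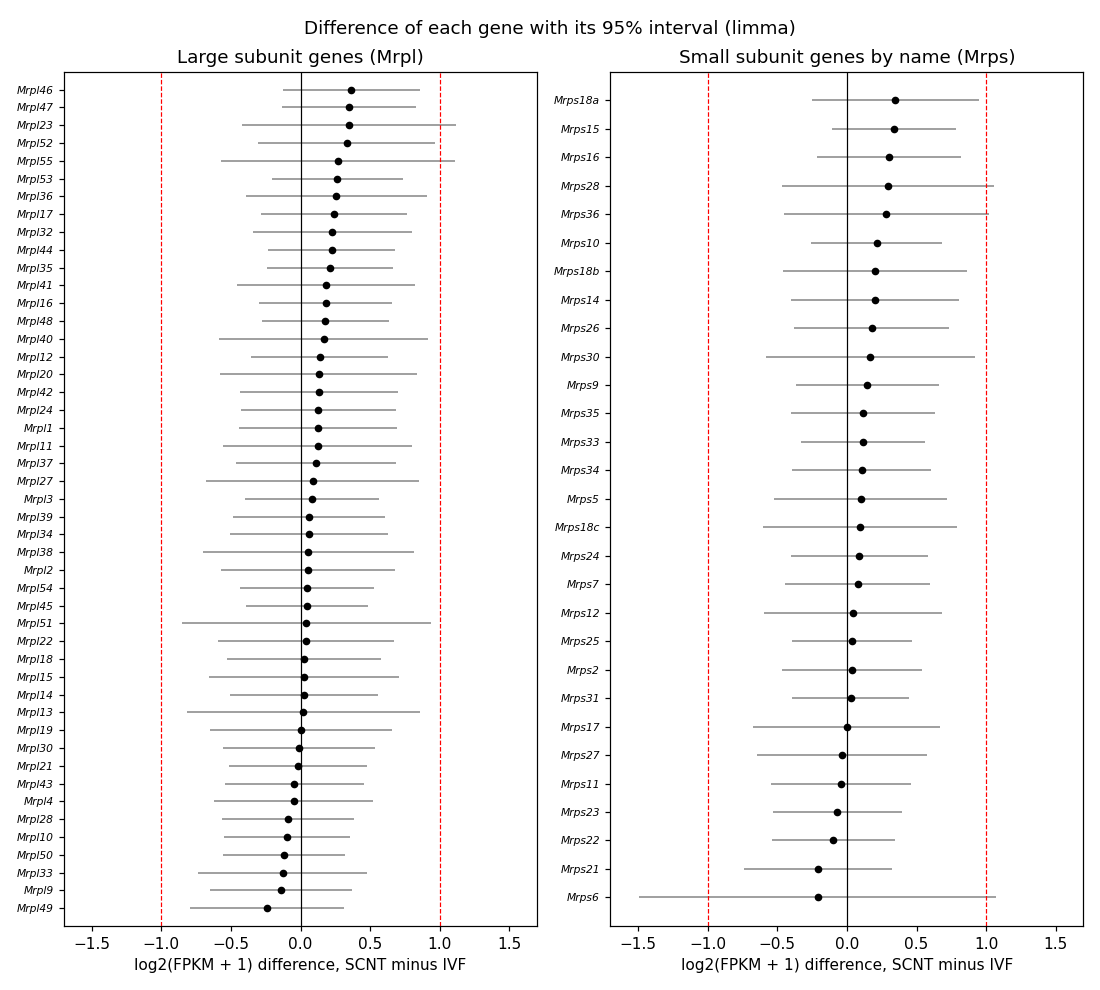
Log2(FPKM + 1) difference, SCNT minus IVF, of each Mrpl (left) and Mrps (right) gene, with the estimate as a point and the 95% limma interval as a line; dashed lines mark a 2-fold change. All intervals include 0, and 5 reach past a dashed line.

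Estimates were above 0 more often than below. Of the members 59 were above and 17 below 0 (77.6% above, against 52.2% of all tested genes), with 37 of 47 in Mrpl and 22 of 29 in Mrps. The median difference was 0.08 in Mrpl and 0.10 in Mrps, beside 0.01 for all tested genes. When microRNA and small nucleolar RNA genes were left out and sums rescaled, 44 of 76 members were above 0, and the medians were 0.03 in Mrpl, 0.04 in Mrps and -0.03 in all genes. The count above 0 was 36 without IVF library 1 and 34 without SCNT library 2, beside 60 and 61 without IVF library 2 and SCNT library 1. The sign of the Mrpl median depended on which library was left out. It was -0.06 without IVF library 1 and -0.03 without SCNT library 2, and 0.24 and 0.25 without IVF library 2 and SCNT library 1. In Mrps the median stayed between 0.07 and 0.18. Between libraries of the same number, the median was 0.10 (libraries 1) and 0.05 (libraries 2) in Mrpl, and 0.03 and 0.12 in Mrps. Both SCNT libraries were above both IVF libraries for 12 members (15.8%, against 18.3% of tested genes), and below both for 4 (5.26%, against 15.1%), namely Mrpl28, Mrpl50, Mrps21 and Mrps22. The share of members separated upward was thus near the background.

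Library 2 of each group was compared with library 1. The median absolute difference between IVF libraries was 0.27 and between SCNT libraries 0.25 over the 76 members, beside 0.12 between group means, which average 2 libraries each and so vary less. Over all tested genes the same medians were 0.27, 0.24 and 0.16. IVF library 2 exceeded IVF library 1 for 57 members, SCNT library 2 exceeded SCNT library 1 for 60, and both held for 53. Medians of these differences were 0.24 and 0.23 for the members but -0.04 and -0.02 for all tested genes. Spearman's rho between them across the 76 members was 0.73, a description over genes of the same 4 libraries. The members took 1.38% and 1.56% of summed FPKM in IVF libraries 1 and 2 and 1.44% and 1.67% in SCNT libraries 1 and 2. Within library numbers, the median member differed between SCNT and IVF by 0.07 in libraries 1 and by 0.10 in libraries 2.

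**Figure D4:**
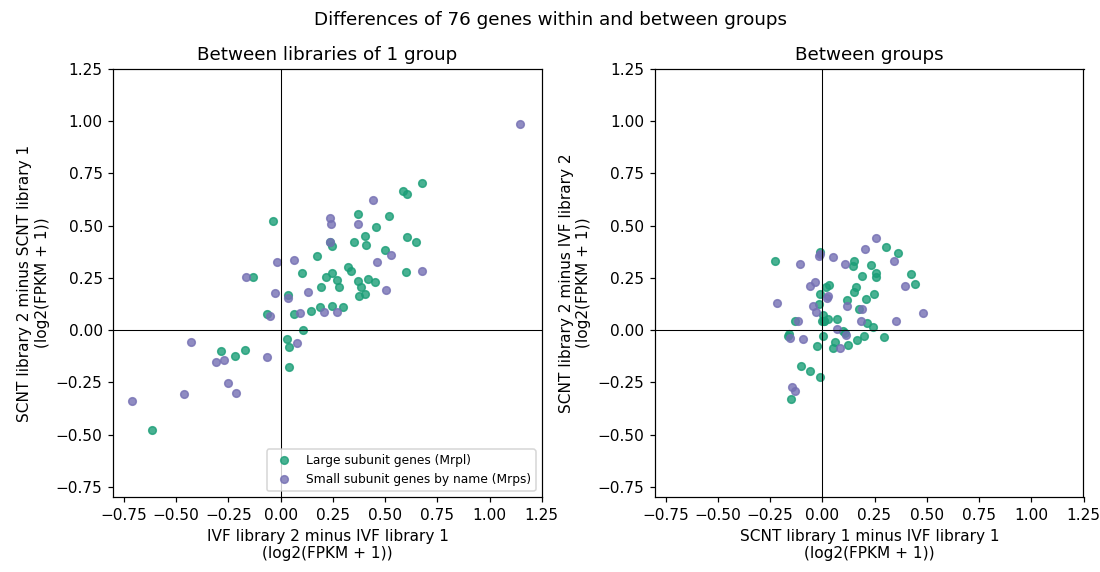
Log2(FPKM + 1) differences of 76 genes (green Mrpl, purple Mrps): left, library 2 minus library 1 in IVF (x) and SCNT (y); right, SCNT minus IVF for libraries 1 (x) and libraries 2 (y). On the left the points follow a diagonal (Spearman's rho 0.73) and reach 1.14 for Mrps6, and on the right they stay between -0.33 and 0.48.

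Mrps6, the counterpart of bacterial S6, showed that spread most, with 111 and 247 FPKM in IVF and 101 and 201 FPKM in SCNT. Both libraries numbered 2 were high and both numbered 1 low, and the ranges of the groups overlapped (difference -0.21 ± 0.50, SE). Its exons overlap those of Slc5a3, an inositol transporter gene on the same strand in GENCODE M21, which was between 1.13 and 1.82 FPKM here. Exons of 32 members overlap another gene, 27 of them on the opposite strand, and 18 members share at least 200 bases at 95% identity or more with another transcript elsewhere. Reads of such genes cannot be told apart with certainty, since neither the use of strand nor the division of shared reads is stated.

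The central protuberance, a crown on the large subunit that contacts the small one, is built in part by Mrpl18, Mrpl38, Mrpl40, Mrpl46, Mrpl48 and Mrpl52. All 6 estimates were above 0, with a median of 0.17, and none passed. Above 0 were also 77.6% of all members and 52.2% of all tested genes. The count was 4 with short RNA genes left out (Mrpl18 and Mrpl38 below 0) and 4 or 5 without any 1 library. Mrpl46 had 105 and 120.0 FPKM in IVF and 135 and 155 FPKM in SCNT. Both SCNT values were above both IVF values, a ratio of means of 1.29 and a difference of 0.36 ± 0.19 (SE, 2 libraries per group; limma adjusted p = 0.861). Mrpl52 had 489 and 669 FPKM in IVF and 665 and 779 FPKM in SCNT, where IVF library 2 lay above SCNT library 1. Mrpl48 differed by 0.18 and its groups did not overlap, Mrpl40 by 0.17, Mrpl38 by 0.05 and Mrpl18 by 0.03.

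Mrps11, the small subunit gene that starts beside Mrpl46 across the 41 bases printed above, had 105 and 104 FPKM in IVF and 90.7 and 114 FPKM in SCNT. The SCNT libraries enclosed the IVF values, with a difference of -0.04 ± 0.20 (SE). The neighbours thus had like levels (means of 129 and 104 FPKM), and estimates of 0.36 and -0.04 whose difference was not tested. Exons of the pair overlap on opposite strands. Twnk differed by 0.02 and Mrpl43 by -0.04, Sars2 by 0.00087 and Mrps12 by 0.04, and Ptcd2 by 0.20 and Mrps27 by -0.04. Twnk was between 6.09 and 8.99 FPKM and Mrpl43 between 142 and 171 FPKM, a large gap in level between genes that start side by side. Exons of Mrpl43 and Twnk also overlap on opposite strands, so their reads cannot be told apart with certainty.

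Genes around the exit tunnel, 10 by the grouping used and with Mrps30 among them, also had only estimates above 0 (median 0.15, none passing). The share above 0 was 77.6% over all members and 52.2% over all tested genes. The count was 8 with short RNA genes left out (Mrpl22 and Mrpl45 below 0). It was 5 when IVF library 1 was dropped, 7 when SCNT library 2 was, and 9 when either of the others was. Mrpl47, a tunnel-exit protein and counterpart of bacterial L29, had 115 and 98.6 FPKM in IVF and 142 and 130.1 FPKM in SCNT, without overlap (0.35 ± 0.19, SE; limma adjusted p = 0.869). Mrpl44, which resembles ribonuclease III, had 85.8 and 76.2 FPKM in IVF and 97.9 and 91.5 FPKM in SCNT, also without overlap (0.22 ± 0.18, SE). The proteins of Mrpl22, Mrpl23 and Mrpl24 ring the tunnel exit. Mrpl22 differed by 0.04 and Mrpl24 by 0.13, and their groups overlapped. Mrpl23 had 359 and 546 FPKM in IVF and 482 and 658 FPKM in SCNT, the higher value in library 2 each time. Mrpl45, which ties the ribosome to the inner membrane, had 80.0 and 86.2 FPKM in IVF and 85.7 and 85.8 FPKM in SCNT, among the closest sets of values. Mrps30 had 24.3 and 14.4 FPKM in IVF and 24.0 and 18.7 FPKM in SCNT.

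The stalk, which recruits translation factors, is formed by Mrpl12 on a base of Mrpl10, Mrpl11, Mrpl53 and Mrpl54. Mrpl12, the counterpart of bacterial L7/L12 and also reported to bind the mitochondrial RNA polymerase, had 591 and 603 FPKM in IVF and 666 and 647 FPKM in SCNT. The groups did not overlap, yet the difference was 0.14 ± 0.19 (SE; 95% interval -0.36 to 0.63) and did not pass. Mrpl53 had 285 and 298 FPKM in IVF and 341 and 359 FPKM in SCNT, without overlap (0.26 ± 0.18, SE; limma adjusted p = 0.932). Mrpl54 differed by 0.05, Mrpl11 by 0.12 and Mrpl10 by -0.10, all with overlapping groups. Stalk genes themselves spanned means from 42.7 FPKM (Mrpl11) to 627 FPKM (Mrpl12). Outside these places, Mrpl35, the counterpart of bacterial L35, had 29.0 and 33.2 FPKM in IVF and 34.7 and 37.5 FPKM in SCNT (0.21 ± 0.18, SE).

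In the small subunit, 8 genes of the head all had estimates above 0 (median 0.12), as had 77.6% of all members and 52.2% of all tested genes. Of the head genes, 7 were above 0 when short RNA genes were left out and 6 or 7 without any 1 library. Of 17 genes of the body, 10 were above and 7 below 0 (median 0.04), and without SCNT library 2 only 5 were above 0. Mrps15, the counterpart of the rRNA-binding bacterial protein S15, had the smallest unadjusted p of all members, 0.112. It had 102 and 109 FPKM in IVF and 129 and 137 FPKM in SCNT, without overlap (0.34 ± 0.17, SE; limma adjusted p = 0.857). Mrps16, the counterpart of S16, had 268 and 324 FPKM in IVF and 354 and 375 FPKM in SCNT (0.30 ± 0.20, SE). Mrps10, a head protein, had 171 and 168 FPKM in IVF and 185 and 209 FPKM in SCNT (0.21 ± 0.18, SE). In these 3 genes both SCNT libraries lay above both IVF libraries.

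The genes Mrps18a, Mrps18b and Mrps18c encode related proteins at different places, of which Mrps18c is the counterpart of bacterial S18. Mrps18a had 207 and 245 FPKM in IVF and 247 and 332 FPKM in SCNT, which did not overlap by a narrow margin (0.35 ± 0.23, SE; limma adjusted p = 0.922). Mrps18b had 315 and 371 FPKM in IVF and 326 and 474 FPKM in SCNT, and Mrps18c had 414 and 536 FPKM in IVF and 422 and 600.0 FPKM in SCNT. Both overlapped between groups, at 0.20 ± 0.26 and 0.09 ± 0.27 (SE). The order Mrps18c, Mrps18b, Mrps18a from high to low held in all 4 libraries. Mrps36 had 111 and 178 FPKM in IVF and 155 and 188 FPKM in SCNT (0.28 ± 0.29, SE).

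Among lower estimates, Mrpl49 had 78.5 and 103 FPKM in IVF and 70.8 and 81.7 FPKM in SCNT (-0.24 ± 0.22, SE) and overlapped. Mrps21 (-0.21 ± 0.21, SE), Mrpl33 (-0.13), Mrpl50 (-0.12), Mrps22 (-0.10) and Mrpl28 (-0.09) did not pass either. Mrps22, a mitochondria-specific protein of the small subunit, had 65.0 and 66.7 FPKM in IVF and 58.3 and 64.8 FPKM in SCNT. The separation was also narrow in Mrpl28, a counterpart of bacterial L28, which had 374 and 358 FPKM in IVF and 335 and 354 FPKM in SCNT.

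Members were also grouped by whether the protein has a bacterial counterpart. The 45 grouped as having one had a median level of 165 FPKM, and the other 31, with Mrps18a, Mrps18b and Mrps36 among them, 104 FPKM. Their median differences were 0.08 and 0.11. Members with the ETS letters had a median level of 213 FPKM and a median difference of 0.07, and those with a window but without the letters 92.6 FPKM and 0.12. For the other sites the levels went the other way, with 90.2 FPKM with and 129 FPKM without NRF1 letters, and 88.2 FPKM with and 130.4 FPKM without YY1 letters. With and without NRF1 letters the median difference was 0.10 each. No contrast between these groups of members was tested.

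Other genes of mitochondrial translation were read from lists alongside. Ribosomal proteins under other names (7 genes) had 6 estimates above and 1 below 0, with a median of 0.19 and none passing. Among them Dap3, a GTP-binding protein of the small subunit head, had 25.2 and 23.6 FPKM in IVF and 34.0 and 30.9 FPKM in SCNT (0.40 ± 0.17, SE; limma adjusted p = 0.767), and Chchd1 differed by 0.32 ± 0.24 (SE). Of 28 tested assembly factors, 21 were above and 7 below 0 (median 0.07), none passed, and 2 had an unadjusted p under 0.05, which at 7.14% is the share found over all tested genes (7.09%). These were Tfb1m, the methyltransferase of the small rRNA, with 9.36 and 13.3 FPKM in IVF and 17.1 and 18.7 FPKM in SCNT (0.63 ± 0.22, SE; limma adjusted p = 0.621), and Fastkd2, which binds the large rRNA (0.49 ± 0.17, SE; limma adjusted p = 0.602).

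Of 14 translation factors, 12 were above and 2 below 0 (median 0.14), none passing. The release factor gene Mtrf1 differed by 0.41 and the GTPase gene Guf1 by 0.42. Of 15 tested genes of mitochondrial transcription, RNA handling and DNA replication, 12 were above 0 (median 0.09), with Mterf at 0.56 and the poly(A) polymerase gene Mtpap at 0.26. The nuclear regulators, with 13 tested, had 8 above and 5 below 0 (median 0.09), among them Max at 0.37 and Sp1 at -0.24. No gene in these lists passed over all tested genes. At an unadjusted p under 0.05 the translation factors and the regulators had 0 genes, and the transcription list had 1, Mterf (6.67%, again near the 7.09% of all tested genes).

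Of the gene sets most like it, the 77 nuclear subunits of the respiratory chain and ATP synthase had 73 estimates above 0 and a median of 0.19, and 82 tested cytosolic ribosomal proteins had 70 above 0 and a median of 0.11. None of either passed, and whether either median differs from that of the mitochondrial ribosomal genes was not tested. Cox7a1, a muscle-type subunit of cytochrome oxidase, and Sdhd, a subunit of complex II, differed by 0.72 and 0.43, and Rps23 and Rps15a of the cytosolic ribosome by 0.33 and 0.21. In libraries 2 the respiratory chain median was 0.08, close to the 0.10 of the mitochondrial ribosomal genes, while in libraries 1 it was 0.29 against 0.07. These 2 lists share all 4 libraries with the members. Cytosolic ribosomal genes were lower in library 2 of each group, by medians of -0.19 in IVF and -0.30 in SCNT, where mitochondrial ribosomal genes were higher. Respiratory chain genes were also higher in library 2, by medians of 0.36 in IVF and 0.12 in SCNT.

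**Figure D5:**
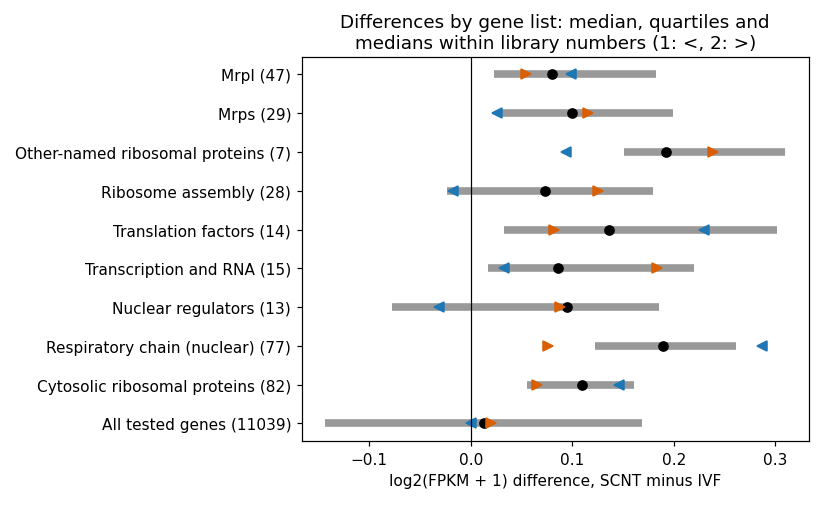
Median log2(FPKM + 1) difference, SCNT minus IVF (black point), with quartiles over genes (grey bar) and the medians within libraries numbered 1 (blue, pointing left) and 2 (orange, pointing right), with the number of tested genes in brackets. Medians of Mrpl (0.08) and Mrps (0.10) lie above the 0.01 of all tested genes and inside their quartiles.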

How the data were processed

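Members and lists were chosen with earlier results of these data known. Per the submitters' processing notes, the authors used TopHat2 2.0.14, Bowtie2 2.1.0 and Cufflinks 2.2.1 with mm9; the sources used here do not give annotation, parameters or strand. The deposited values were taken to be FPKM, inferred from Cufflinks and the values. Embryos were lysed directly and their cDNA amplified, per the labels' protocols.

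The 11039 genes with a mean of at least 1 FPKM were tested. Their log2(FPKM + 1) values in the 2 IVF and 2 SCNT libraries were compared in R 4.3.3 by limma 3.58.1. The fit had a mean-variance trend and group as the only term, with p-values Benjamini-Hochberg adjusted over all these genes. The step was run on simulated data whose spread depended on mean level alone, without further variation between genes. That run therefore does not show what size of difference was detectable here. The pseudocount understates the change of low genes. Absolute depth is unknown. Copies were sought with blastn 2.17.0.

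Named genes were, per subunit, the 4 highest and 3 lowest by mean and those with the smallest unadjusted p (6 Mrpl, 4 Mrps), the Mrps18 paralogs, stalk and exit-tunnel genes, Mrps30, Mrps36 and 2 genes per other list. Mrpl18, Mrpl28, Mrpl38, Mrpl40, Mrpl43, Mrpl48, Mrpl49, Mrpl55, Mrps6, Mrps11, Mrps12, Mrps22, Mrps27, Mrps28 and the divergent neighbours were added after values were seen. Alternatives were other pseudocounts (0.1, 5), filters, scalings, priors, a replicate block and leaving out each library.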

Additional observations from a re-analysis of the deposited data

How the results depend on the processing

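No member passed an adjusted p of 0.05 under any of the 13 alternatives (lowest limma adjusted p 0.193, with the replicate block), and no gene of the 7 other lists did. The count of members with an unadjusted p under 0.05 was 0 except for 2 without a filter and 11 with the replicate block, where 7.53% and 16.6% of all genes had such a p. The replicate number was checked as a pairing: deviations of same-numbered libraries correlated at 0.31 over all tested genes and 0.81 over members. The labels name no pairing, and so few libraries cannot decide whether same-numbered ones belong together. The block changed no call of a member at the adjusted threshold. Leaving out 1 library at a time, where the lone library is assumed to vary like the other group, moved the Mrpl median between -0.063 and 0.25 and the Mrps median between 0.074 and 0.18. Counting genes by the place of the protein gave 0.09 for both medians. The cause of the reversals was not tested.

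Leaving out 1 library turned the sign of these differences, none of which passed: Mrpl11 (-0.16 to 0.40), Mrpl18 (-0.10 to 0.15), Mrpl19 (-0.25 to 0.25), Mrpl22 (-0.17 to 0.25), Mrpl24 (-0.072 to 0.33), Mrpl33 (-0.31 to 0.058), Mrpl38 (-0.25 to 0.36), Mrpl40 (-0.11 to 0.44), Mrpl41 (-0.043 to 0.41), Mrpl42 (-0.0070 to 0.27), Mrpl43 (-0.18 to 0.091), Mrpl45 (-0.0076 to 0.10), Mrpl55 (-0.062 to 0.60), Mrps6 (-0.78 to 0.36), Mrps11 (-0.21 to 0.12), Mrps12 (-0.19 to 0.28), Mrps18b (-0.068 to 0.47), Mrps18c (-0.16 to 0.35), Mrps25 (-0.026 to 0.10), Mrps27 (-0.27 to 0.19), Mrps28 (-0.016 to 0.61), Mrps30 (-0.19 to 0.52), Mrps31 (-0.0054 to 0.061) and Mrps36 (-0.057 to 0.62). With short RNA genes left out and sums rescaled, Mrpl18 (-0.029), Mrpl19 (-0.050), Mrpl22 (-0.016), Mrpl38 (-0.00045), Mrpl45 (-0.0086), Mrpl54 (-0.0085), Mrps12 (-0.011), Mrps25 (-0.012) and Mrps31 (-0.026) turned negative, as did Mrpl19 (-0.012) when scaled to equal medians. The other named members and listed genes kept their sign in every alternative run, and the divergent neighbours outside the lists were not recomputed.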
